A study of Rattus norvegicus with 61 samples.

Results

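The 9 genes described here mark microglia, the resident macrophages of the brain, and were taken as a named list: Csf1r, Cx3cr1, P2ry12, Tmem119, Ctss, C1qa, C1qb, C1qc and Aif1. All 9 were found by NCBI Gene ID among the 14231 genes of the striatal count table and among the 14129 genes of the cerebellar table, and all 9 passed the filter on low counts in every fit. The libraries came from tissue samples of male adolescent Sprague-Dawley rats in which an implant had been placed under the skin of the back at postnatal day 28 and left for 28 days. The implant held no compound in sham animals and 1% (low), 5% (medium) or 10% (high) of 4-OH-PCB52 in the others. This compound is a hydroxylated form of the polychlorinated biphenyl PCB52, and the sham animals carried an implant as well. The striatum had 8 sham, 6 low, 8 medium and 8 high libraries (30 in all), and the cerebellum had 7 sham, 8 low, 8 medium and 8 high libraries (31 in all). Of 32 animals, 29 gave a library from both regions. Each library is named by its exposure and the number of its animal.

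Microglia depend on the receptor tyrosine kinase encoded by Csf1r, which binds the growth factors Csf1 and Il34. Cx3cr1 is the receptor for Cx3cl1 (fractalkine), a chemokine made largely by neurons, and P2ry12 is the purine receptor through which mouse microglia send their processes towards released ADP. Tmem119 is a transmembrane protein used to tell microglia from other macrophages in mouse and human brain. Ctss encodes cathepsin S, a lysosomal cysteine protease. C1qa, C1qb and C1qc encode the chains of C1q, the protein that starts the classical complement cascade and that marks synapses for removal in the mouse. Aif1 encodes IBA1, a calcium-binding partner of actin filaments and the usual stain for microglia. These measurements come from whole tissue samples, so fewer microglia and less of a transcript per microglial cell cannot be told apart.

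C1qb, C1qc and C1qa stand next to each other on chromosome 5 in the RefSeq annotation of the rat assembly GRCr8. The promoter windows of 4 genes are printed to set 2 of these neighbours beside the genes of 2 receptors, Csf1r and Cx3cr1, which lie on other chromosomes. Each window runs from 250 bases before to 50 bases after the annotated start of the gene, 5′ to 3′ on the strand of the gene. Capitals mark an exact match on either strand to AGGAAGT or TGTGGTT. The former is a form of the site bound by factors of the PU.1 type, the latter a form of that bound by RUNX factors. Other forms of these sites were not searched for. The counts themselves were made on the rn6 build, per the submitters' processing notes, so these GRCr8 positions are not those of the counting.
C1qb, chr5:154407778-154408077, minus strand: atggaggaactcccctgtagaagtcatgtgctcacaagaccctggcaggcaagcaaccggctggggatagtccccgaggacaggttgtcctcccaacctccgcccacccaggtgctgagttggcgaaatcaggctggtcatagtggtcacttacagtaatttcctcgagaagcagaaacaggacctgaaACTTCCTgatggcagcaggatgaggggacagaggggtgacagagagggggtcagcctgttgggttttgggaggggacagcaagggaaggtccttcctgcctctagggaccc
C1qa, chr5:154419884-154420183, minus strand: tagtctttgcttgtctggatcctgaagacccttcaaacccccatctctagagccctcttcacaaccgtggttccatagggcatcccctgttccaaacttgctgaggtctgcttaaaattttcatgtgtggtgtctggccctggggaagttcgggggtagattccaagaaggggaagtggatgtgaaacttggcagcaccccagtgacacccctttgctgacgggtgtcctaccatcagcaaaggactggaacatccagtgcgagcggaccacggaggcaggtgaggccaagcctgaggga
Csf1r, chr18:56834129-56834428, plus strand: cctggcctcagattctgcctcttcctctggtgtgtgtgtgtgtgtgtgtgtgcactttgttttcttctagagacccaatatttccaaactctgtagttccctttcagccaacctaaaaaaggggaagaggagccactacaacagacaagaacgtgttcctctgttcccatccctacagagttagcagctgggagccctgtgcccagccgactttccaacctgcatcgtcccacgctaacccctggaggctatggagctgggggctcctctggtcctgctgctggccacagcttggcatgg
Cx3cr1, chr8:128677017-128677316, minus strand: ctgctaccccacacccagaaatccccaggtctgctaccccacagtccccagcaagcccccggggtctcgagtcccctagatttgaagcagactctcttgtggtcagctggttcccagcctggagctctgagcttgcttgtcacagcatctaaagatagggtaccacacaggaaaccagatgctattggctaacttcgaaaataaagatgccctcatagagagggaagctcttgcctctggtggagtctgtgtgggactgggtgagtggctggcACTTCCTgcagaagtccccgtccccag
The window of C1qb held 1 match to AGGAAGT, first base 61 bases before the start, and that of Cx3cr1 held 1 match 24 bases past the start. The windows of C1qa and Csf1r held no exact match to either motif, which does not show that they lack sites of other forms. The window of Ctss on chromosome 2 also held 1 match to AGGAAGT, 17 bases before the start. All 3 matches were on the strand opposite to the gene and are printed as ACTTCCT. Among all 33469 promoter windows of the same length, 8.41% held AGGAAGT and 5.57% held TGTGGTT on either strand, and TGTGGTT was in none of the 5 member windows. P2ry12, Tmem119, C1qc and Aif1 had no entry in the promoter table.

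Some libraries differed from the rest of their region in more than the exposure. A library was said to stand apart when its mean log2 CPM (reads of a gene scaled to the library total) over 62 ribosomal protein genes, or over the marker genes of the neurons of its own region, was over 1 log2 unit away from the regional median. That held for 8 of 30 striatal libraries and 10 of 31 cerebellar libraries. In the striatum these were 2 of 8 sham, 1 of 6 low, 2 of 8 medium and 3 of 8 high libraries. In the cerebellum these were 1 of 7 sham, 2 of 8 low, 4 of 8 medium and 3 of 8 high libraries, and their ribosomal means ran from 8.46 to 11.9, against 7.15 to 8.33 in the other 21. Their total reads had a median of 9278286, against 6945758 in the other 21 cerebellar libraries. Totals over all libraries ran from 5420458 to 10994625 reads. Ppp1r1b and Drd1, markers of striatal projection neurons, had medians of 3477 and 342 CPM in the striatum and 220.1 and 1.64 CPM in the cerebellum. Their lowest striatal levels were 188.8 and 8.03 CPM. The summed level of striatal projection neuron genes was 856 to 18332 CPM in the 8 striatal libraries standing apart. In the other 22 it was 10502 to 17437 CPM. Gabra6 and Cbln1, markers of cerebellar granule cells, had medians of 0.153 and 4.86 CPM in the striatum and 838 and 1289 CPM in the cerebellum. The lowest cerebellar Gabra6 level was 1.79 CPM. The summed level of blood leukocyte genes (11 of 13 in the table) was 3.26 to 45.5 CPM (median 11.8) in the 10 libraries standing apart, against 0.336 to 5.39 CPM (median 2.36) in the other 21. The granulocyte genes S100a8 and S100a9 were at 0 in 13 and 8 of 31 cerebellar libraries and reached 2.96 and 3.29 CPM. Results below that rest on libraries standing apart are given with and without them.

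Levels are CPM with trimmed mean of M values (TMM) factors set over all 61 libraries, given as the lowest, median and highest library of a group. They compare one gene across libraries, not one gene with another, because no transcript lengths entered them. Csf1r, the receptor for Csf1 and Il34, had striatal levels of 90.9, 151 and 220.0 CPM in sham, 159.6, 204 and 267 CPM in low, 119.8, 167 and 224 CPM in medium, and 75.5, 179.7 and 209 CPM in high libraries. Its cerebellar levels were 25.4, 49.2 and 76.8 CPM in sham, 35.4, 53.5 and 86.7 CPM in low, 41.1, 48.9 and 82.1 CPM in medium, and 17.8, 43.1 and 62.0 CPM in high libraries. The groups overlapped within each region, and high 28 was the low striatal library.

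The fractalkine receptor Cx3cr1 had 11.7, 32.2 and 45.6 CPM in sham striatum, 26.6, 36.3 and 52.3 CPM in low, 12.97, 37.4 and 51.2 CPM in medium, and 28.4, 29.2 and 51.8 CPM in high striatum. In the cerebellum it had 3.20, 6.96 and 11.8 CPM in sham, 4.36, 8.70 and 25.02 CPM in low, 6.34, 8.67 and 23.6 CPM in medium, and 5.25, 7.62 and 9.70 CPM in high libraries. All 4 groups overlapped in both regions. The purine receptor P2ry12 had 7.19, 17.2 and 22.6 CPM in sham striatum, 13.8, 18.1 and 23.9 CPM in low, 10.8, 20.0 and 22.7 CPM in medium, and 16.9, 19.4 and 24.8 CPM in high striatum. It was at 1.28, 4.69 and 6.38 CPM in sham cerebellum, 2.40, 4.01 and 13.02 CPM in low, 4.14, 5.76 and 10.1 CPM in medium, and 3.04, 4.24 and 5.50 CPM in high cerebellum. It was the most thinly read member, with 8 to 102 reads per cerebellar library, and again the exposures overlapped.

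Tmem119, the microglial membrane protein, had 12.05, 23.02 and 34.9 CPM in sham striatum, 17.1, 24.5 and 47.4 CPM in low, 20.6, 28.2 and 37.2 CPM in medium, and 13.9, 21.0 and 36.3 CPM in high striatum. In the cerebellum its levels were 2.72, 3.20 and 9.21 CPM in sham, 3.02, 6.60 and 11.1 CPM in low, 4.24, 7.21 and 17.3 CPM in medium, and 2.21, 5.18 and 8.91 CPM in high libraries. The medians of the 3 loadings lay above that of sham in the cerebellum, but every loading overlapped with sham. The protease gene Ctss had 111, 190.1 and 239 CPM in sham striatum, 169.8, 228 and 337 CPM in low, 167, 266 and 354 CPM in medium, and 167, 212 and 335 CPM in high striatum. It had 39.5, 43.7 and 94.8 CPM in sham cerebellum, 36.8, 53.01 and 189.8 CPM in low, 40.1, 65.7 and 124 CPM in medium, and 41.1, 47.1 and 75.6 CPM in high cerebellum. The exposures overlapped in both regions.

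For C1qa, the first of the 3 chains of C1q, the groups overlapped in both regions. It had 43.5, 77.5 and 132 CPM in sham striatum, 60.7, 85.1 and 123 CPM in low, 63.0, 92.2 and 154 CPM in medium, and 55.2, 76.7 and 157 CPM in high striatum. In the cerebellum C1qa had 16.97, 22.4 and 129 CPM in sham, 13.9, 23.8 and 114 CPM in low, 21.5, 42.0 and 104 CPM in medium, and 19.0, 23.9 and 143 CPM in high libraries. The 10 cerebellar libraries standing apart held C1qa at 56.1 to 143 CPM, above all 21 others at 13.9 to 45.6 CPM. C1qb had medians of 48.01, 54.4, 57.4 and 45.7 CPM in sham, low, medium and high striatum and 13.3, 16.3, 26.4 and 15.4 CPM in sham, low, medium and high cerebellum. Its range over all libraries was 30.9 to 115 CPM in the striatum and 11.6 to 81.0 CPM in the cerebellum. The medians of C1qc were 39.0, 37.6, 46.9 and 34.4 CPM in sham, low, medium and high striatum and 12.3, 11.5, 18.3 and 11.8 CPM in sham, low, medium and high cerebellum. Cerebellar sham 48 had the highest C1qc level of any library, 121 CPM, and the highest striatal level was 80.3 CPM. Aif1, the gene of IBA1, had medians of 19.7, 20.3, 25.1 and 20.3 CPM in sham, low, medium and high striatum, over a range of 12.8 to 55.1 CPM. In the cerebellum its medians were 5.59, 6.50, 9.81 and 6.73 CPM in sham, low, medium and high libraries, over a range of 2.01 to 51.5 CPM. As for C1qa, the 10 libraries standing apart, at 12.1 to 51.5 CPM, lay above the other 21, at 2.01 to 7.94 CPM. In the same 10 libraries, beside the ribosomal and blood leukocyte genes, the summed level of border macrophage genes (14 of 15 in the table) was 45.01 to 579 CPM (median 95.6), against 20.0 to 116 CPM (median 38.2) in the other 21. For red blood cell genes (5 of 6) it was 4.10 to 799.5 CPM (median 19.4), against 0.456 to 53.7 CPM (median 4.11). For genes of activated microglia (16 of 17) it was 7874 to 30802 CPM (median 15068), against 2846 to 5935 CPM (median 3081). The part of these lists in the member levels was not tested.

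**Figure D1:**
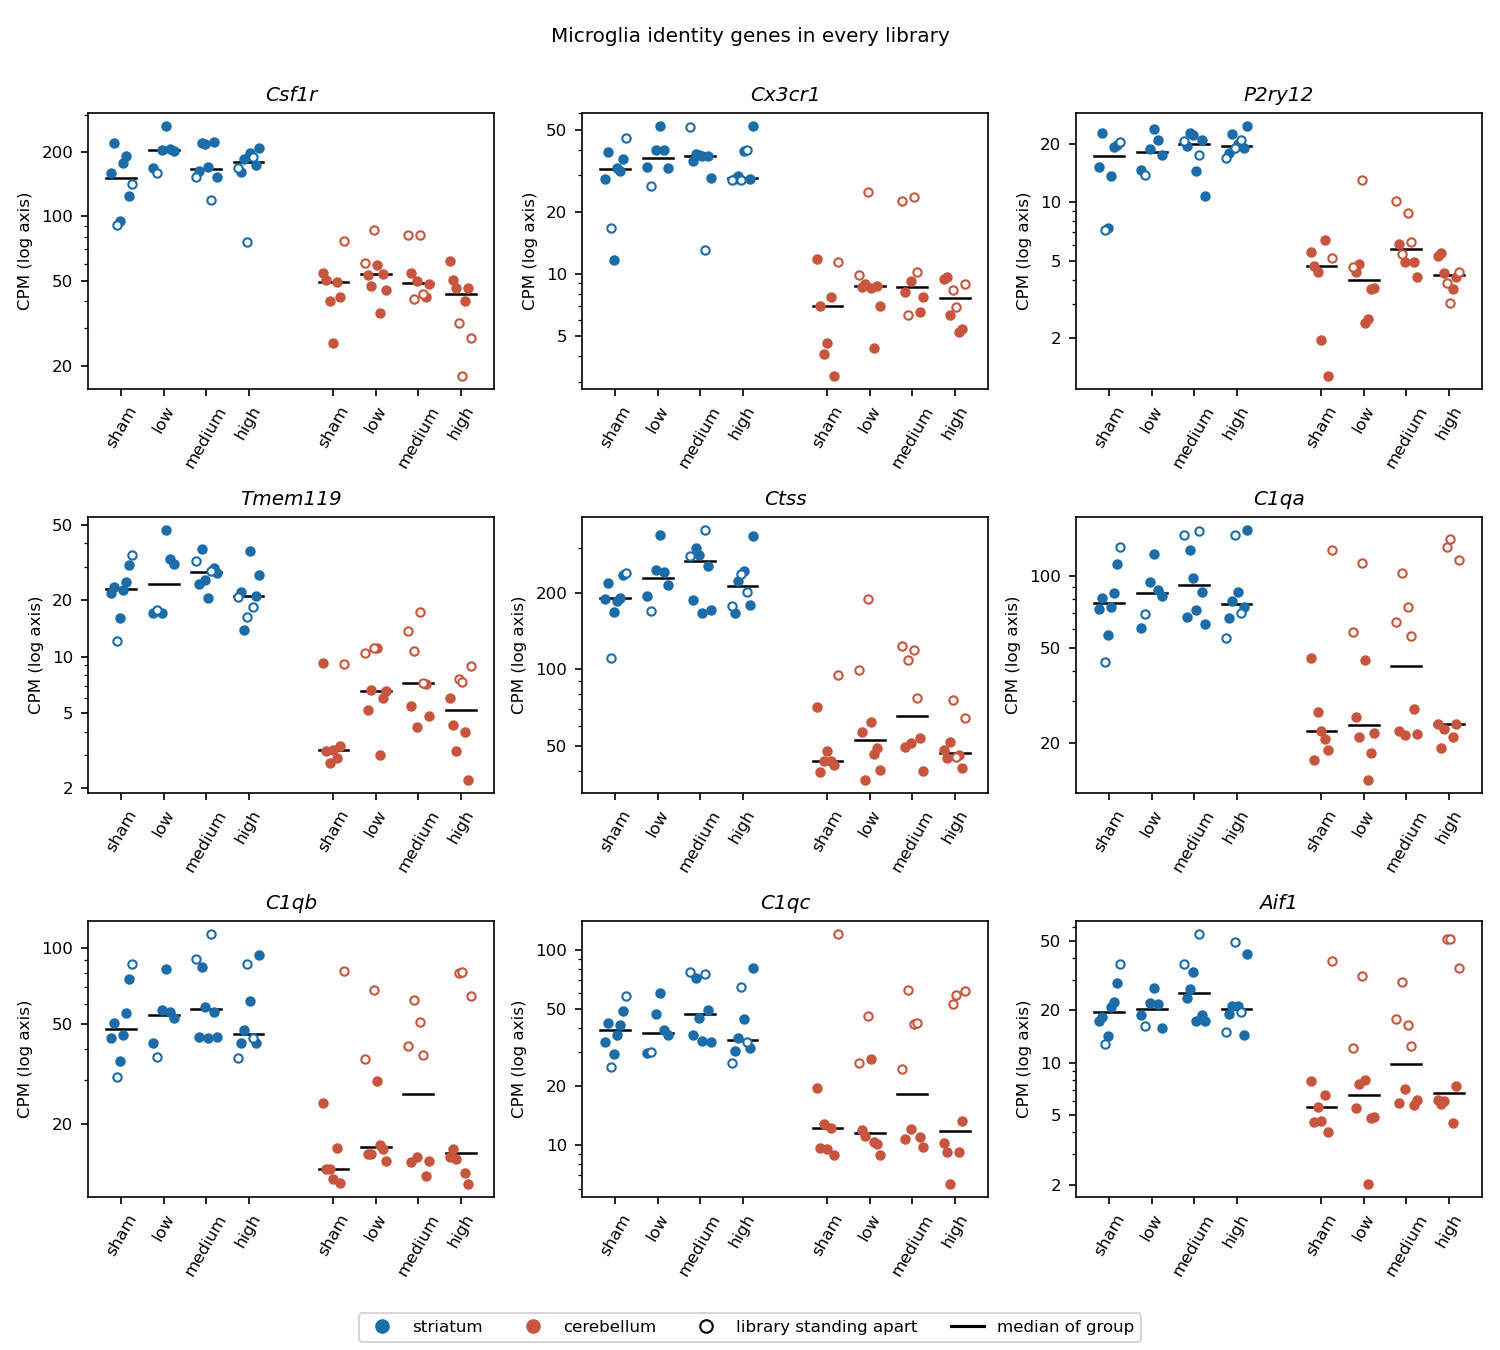
Level of each of the 9 genes in CPM (log axis) in every library, by exposure, with striatum (blue) left of cerebellum (red); points are libraries, open points are libraries standing apart and bars are group medians. Striatal points lie above most cerebellar points, exposures of one region overlap, and for C1qa, C1qb, C1qc and Aif1 the open cerebellar points reach the striatal levels.

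The first question of the design was whether the loading of the implant changed gene expression within a region. No change of the 9 genes was detected at any loading in either region, which does not show that their levels stayed the same. Each of the 54 pairings of a gene with a loading overlapped with sham in CPM. Of all tested genes shared by both tables, 0.0898%, 0.0326% and 0% did not overlap with sham at low, medium and high in the striatum, and 0%, 0% and 0.0168% in the cerebellum. None of the 54 passed an adjusted p of 0.05 in edgeR's quasi-likelihood test with Benjamini-Hochberg adjustment over all genes tested (12267 in the striatum, 11946 in the cerebellum). The background was the same, with 0% of all genes called in each of the 6 comparisons. At an unadjusted p under 0.05, the same test gave 471 genes at low, 453 at medium and 141 at high in the striatum, and 182, 170 and 1394 in the cerebellum at low, medium and high. DESeq2 and limma-voom called none of the 9 either.

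In the striatum most estimates lay above sham by less than 0.5 log2 units. At low, 8 of 9 genes had a positive log2 fold change, with a median of 0.24 over the 9, against -0.00 over all genes tested. Csf1r was highest at 0.45 ± 0.20 (log2 fold change ± SE; adjusted p = 0.905 in edgeR) and Aif1 lowest at -0.05 ± 0.29. At medium, 9 of 9 were positive with a median of 0.33, against 0.02 over all genes. Aif1 stood at 0.44 ± 0.27, Ctss had the smallest p at 0.39 ± 0.17 (adjusted p = 1.00 in edgeR), and Cx3cr1 was lowest at 0.22 ± 0.23. At high, 8 of 9 were positive with a median of 0.19, against 0.02 over all genes. P2ry12 was highest at 0.37 ± 0.19 (adjusted p = 1.00 in edgeR) and Tmem119 lowest at -0.07 ± 0.22. Of all genes tested, 49.8%, 54.8% and 56.7% were positive at low, medium and high. The 3 loadings share the same 8 sham libraries, so their common sign is not 3 separate observations. The 9 genes varied together over the same libraries, so neither are their signs 9 separate observations. The other microglial genes, 36 of 37 listed that could be tested, had medians of 0.29, 0.23 and 0.18 at low, medium and high, the endothelial list 0.36, 0.28 and 0.18, and the astrocyte list 0.38, 0.20 and 0.21. The part of these cell types in the member values was not tested.

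In the cerebellum the 9 estimates of a loading were spread more widely than in the striatum. At low, 6 of 9 genes were positive with a median of 0.19, against -0.03 over all genes, from Tmem119 at 0.63 ± 0.37 to C1qc at -0.56 ± 0.63. At medium, 8 of 9 were positive with a median of 0.32, against -0.00 over all genes. Tmem119 was highest at 0.86 ± 0.37 (adjusted p = 0.999 in edgeR) and C1qc lowest at -0.07 ± 0.63. At high, 6 of 9 were positive with a median of 0.08, against -0.03 over all genes. Aif1 was highest at 1.04 ± 0.65 (adjusted p = 0.541 in edgeR) and Csf1r lowest at -0.27 ± 0.24. Of all genes tested in the cerebellum, 43.6%, 49.7% and 47.3% were positive at low, medium and high. Here too the signs of the 9 genes are not separate observations. The ribosomal protein list had medians of -0.44, 0.10 and 1.76 at low, medium and high in the cerebellum. Without the libraries standing apart, Aif1 at high was 0.11 ± 0.24 and Csf1r was 0.18 ± 0.16, and none of the 9 was called.

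**Figure D2:**
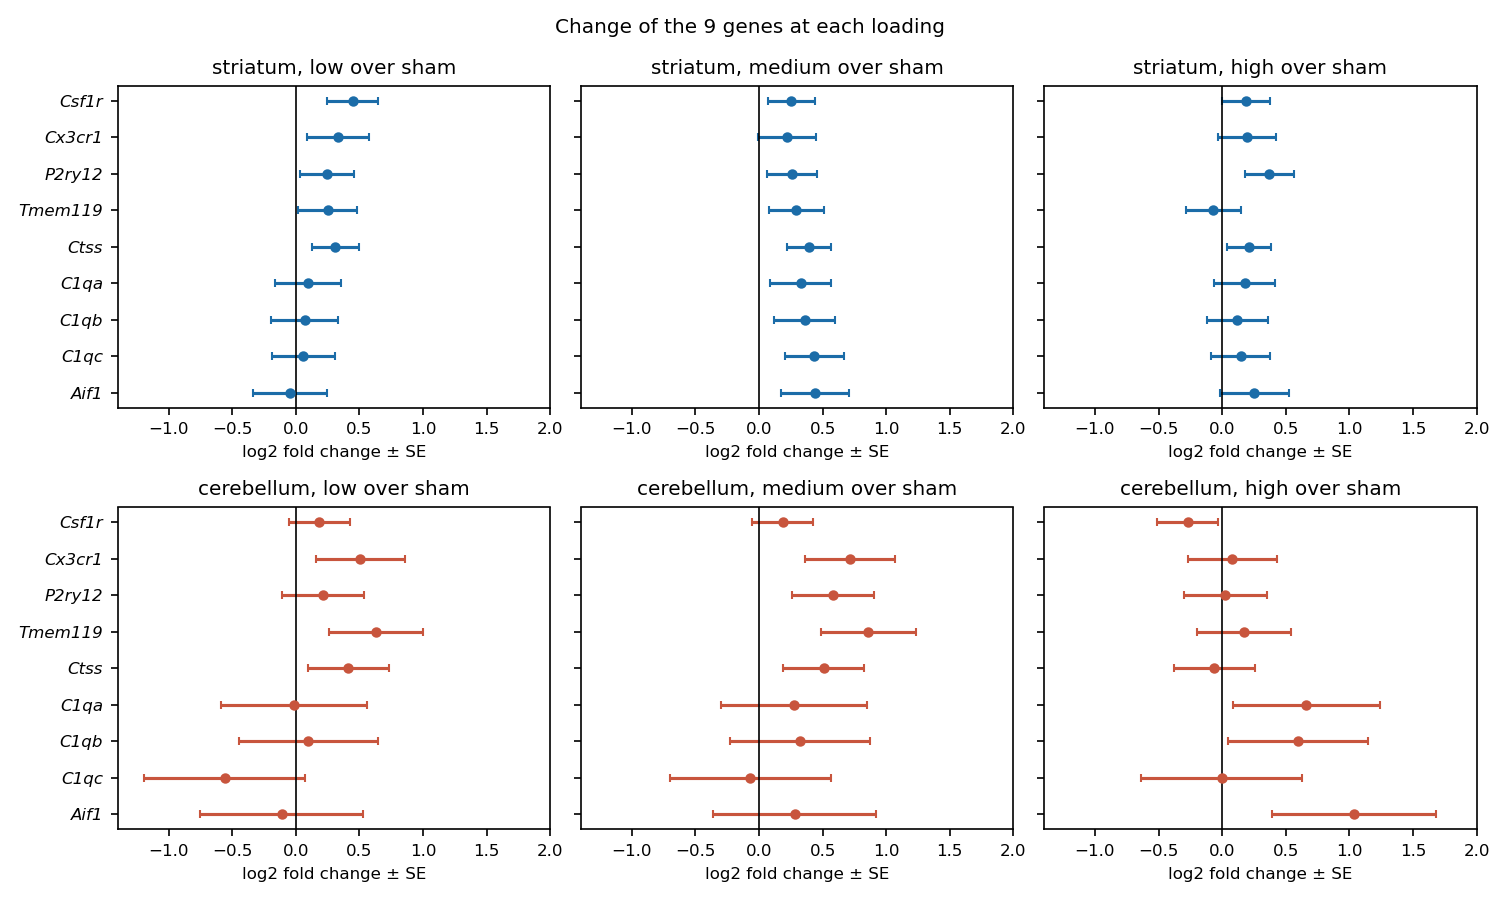
Log2 fold change over sham (horizontal axis, bars show the SE) of the 9 genes at low, medium and high loading in the striatum (upper row) and cerebellum (lower row). Most striatal estimates lie between 0 and 0.5, the cerebellar bars are wider, and no estimate passed the adjusted threshold.

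Tests over all loadings gave the same result. For any difference among the 4 exposures, 0 of 9 genes passed in either region, against 0.0245% of all genes in the striatum (3 of 12267) and 0% in the cerebellum. For the linear trend with percent loading, 0 of 9 passed against a background of 0% in both regions. The member with the smallest p for the trend was Aif1 in the cerebellum, with a slope of 0.11 ± 0.05 log2 units per percent loading (adjusted p = 0.223 in edgeR). Without cerebellar sham 48, 1 of the 9, Aif1, passed that trend test (0.16 ± 0.05 log2 units per percent loading, adjusted p = 0.0338 in edgeR), and 1635 of all genes did. Sham 48 was the 1 cerebellar sham library standing apart, so those left in that fit were all low, medium or high libraries. Aif1 was at 12.1 to 51.5 CPM in the 10 cerebellar libraries standing apart and 2.01 to 7.94 CPM in the other 21. This trend can therefore not be told from the share of such libraries. In the 9 alternative fits of the trend, 0 of the 9 genes passed. For a difference between the regions in the change at high, 0 of 9 passed, against 0.00793% of all genes (1 of 12616), and the smallest adjusted p among the 9 was 0.68, for Csf1r.

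The design also sets the same transcripts in striatum beside cerebellum. All 9 genes were higher in the striatum, averaged over the 4 exposures, in edgeR's quasi-likelihood test with Benjamini-Hochberg adjustment over 12616 genes. The background is large, since 71.6% of all genes were called between the regions, 30.8% of all genes higher and 40.8% lower in the striatum, with a median of -0.13 log2 units over all genes against 1.82 over the 9. The 9 genes fell into 2 ranges. The receptors, Tmem119 and Ctss differed more, with Csf1r at 1.83 ± 0.11, Cx3cr1 at 1.94 ± 0.15, P2ry12 at 1.90 ± 0.13, Tmem119 at 1.96 ± 0.15 and Ctss at 1.82 ± 0.13 (log2 fold change ± SE, adjusted p from 1.9e-21 to 4.0e-17 in edgeR). The complement chains and Aif1 differed less, with C1qa at 0.95 ± 0.22, C1qb at 0.98 ± 0.21, C1qc at 0.81 ± 0.24 and Aif1 at 0.91 ± 0.25 (adjusted p from 5.2e-05 to 0.00241 in edgeR). Whether the 2 ranges differ from each other was not tested.

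Without the libraries standing apart, the 2 ranges lay closer together. The complement chains and Aif1 lay below Tmem119, but their estimates overlapped with that of Csf1r within the SE. Csf1r was then at 1.98 ± 0.09, Tmem119 at 2.40 ± 0.15, C1qa at 1.88 ± 0.13, C1qb at 1.88 ± 0.11, C1qc at 1.90 ± 0.14 and Aif1 at 1.92 ± 0.12. All 9 were called higher, from 1.88 to 2.40 log2 units, where 84.1% of all genes were called. In those libraries the striatum lay above the cerebellum without overlap for 8 of the 9 genes, the exception being Cx3cr1, as it did for 11.8% of all genes tested. Over all 61 libraries that held for 0 of the 9, against 0.729% of all genes. With the mean of the ribosomal list as a covariate, an alternative chosen after seeing the data, C1qa was at 1.24 ± 0.08 and Csf1r at 1.83 ± 0.11.

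In sham libraries taken by themselves from the same fit, 6 of 9 genes were called higher in the striatum, against a background of 43% of all genes, 20.9% higher. Tmem119 had 2.26 ± 0.32, Cx3cr1 2.08 ± 0.31, P2ry12 1.89 ± 0.28, Ctss 1.81 ± 0.27 and Csf1r 1.64 ± 0.23, with C1qb at 1.10 ± 0.43 (adjusted p = 0.034 in edgeR). C1qa at 1.04 ± 0.45, Aif1 at 1.05 ± 0.50 and C1qc at 0.50 ± 0.48 did not pass (adjusted p = 0.0574, 0.0849 and 0.434 in edgeR). With the animal as a block, all 9 passed in sham as well, with C1qc at 1.18 ± 0.38, where 43.9% of all genes were called. Leaving out cerebellar sham 48 alone also gave 9 of 9, with C1qc at 1.72 ± 0.46, where 45.3% of all genes were called. C1qb was no longer called, which left 5 of 9, without cerebellar sham 3, 17, 18, 32 or 34 or striatal sham 48 or 49, each left out by itself. C1qb also lost its call in 2 alternative fits, among them that without both libraries of animal 17, which left 5 of 9 as well. Between 40.1% and 45.3% of all genes were called in sham when each of the 61 libraries was left out.

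Within animals, the striatal library had more than the cerebellar one in 29 of 29 animals for Csf1r, Cx3cr1, P2ry12, Tmem119 and Ctss. For C1qa and C1qb that held in 25 of 29 animals, for C1qc in 26 and for Aif1 in 24. The median ratio of striatum over cerebellum within an animal was 3.62 for Csf1r, 4.10 for Cx3cr1, 3.81 for P2ry12, 4.43 for Tmem119 and 4.26 for Ctss. It was 2.90 for C1qa, 2.81 for C1qb, 2.99 for C1qc and 3.08 for Aif1. In the 16 animals in which neither library stood apart, the striatum was higher in 16 of 16 for each of the 9 genes. Median log2 ratios there ran from 1.75 for C1qb and Aif1 to 2.40 for Tmem119. They were 1.80 for C1qa and 1.83 for C1qc, against 1.93 for Csf1r, 2.11 for Ctss, 2.13 for P2ry12 and 2.14 for Cx3cr1.

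**Figure D3:**
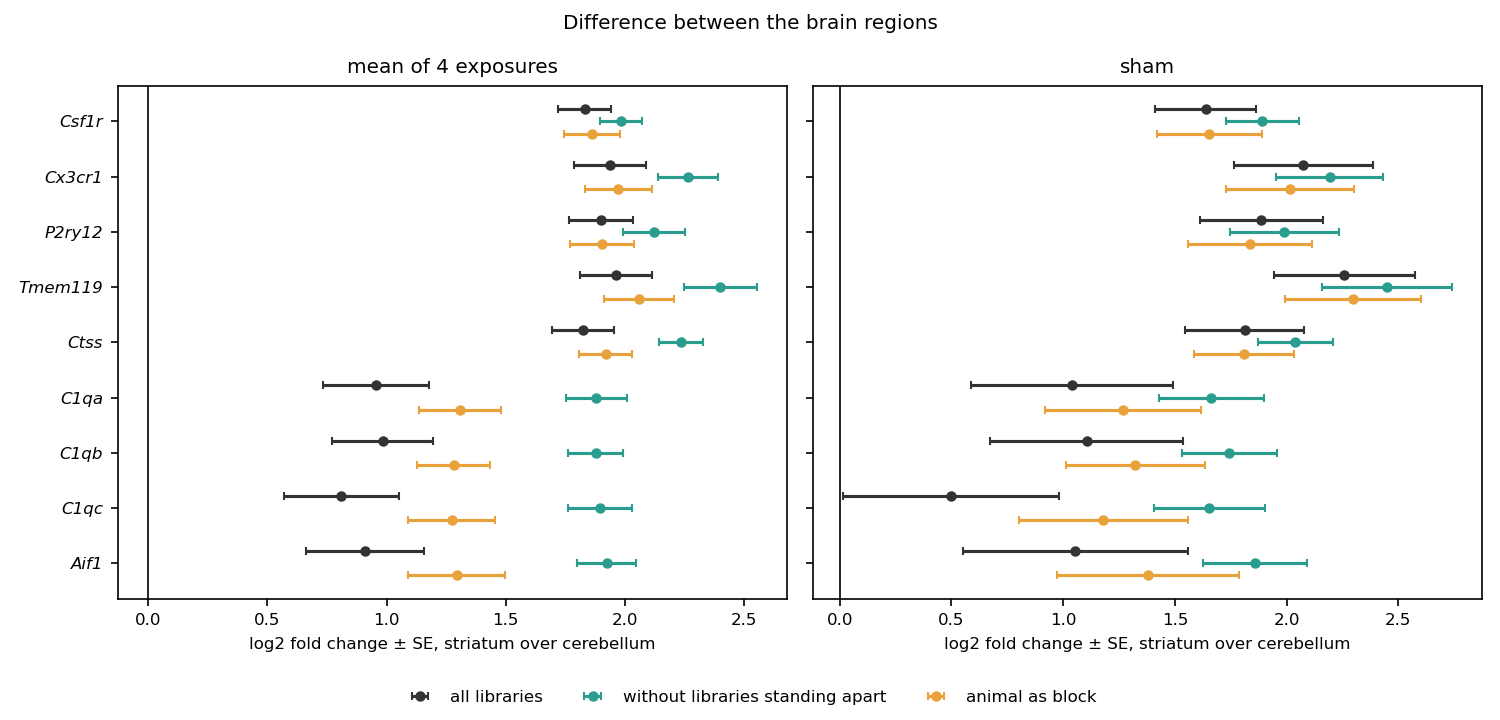
Log2 fold change of striatum over cerebellum (horizontal axis, bars show the SE) for the 9 genes, as the mean of 4 exposures (left) and in sham (right), with all libraries, without libraries standing apart and with the animal as a block. With all libraries C1qa, C1qb, C1qc and Aif1 lie near 1 and the other 5 near 2 in the left panel, and without libraries standing apart all 9 lie between 1.88 and 2.40 there.

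The ligands of the member receptors were compared in the same fit. Cx3cl1, the ligand of Cx3cr1, had 266, 606 and 805 CPM as lowest, median and highest striatal level, against 3.65, 37.4 and 423 CPM in the cerebellum, and was higher in the striatum (3.72 ± 0.23, adjusted p = 4.2e-21 in edgeR). Of the 2 ligands of Csf1r, Il34 (0.92 ± 0.25) differed more than Csf1 (0.27 ± 0.11), and both were higher (adjusted p = 0.00096 and 0.029 in edgeR), as was Tgfb1, the growth factor that keeps the microglial programme in the mouse (0.75 ± 0.13, adjusted p = 7.7e-07 in edgeR). In sham alone, Cx3cl1 was the 1 of 4 that passed (4.01 ± 0.48). None of the 4 passed at any loading in either region. Cx3cl1 at medium in the cerebellum showed the largest estimate (1.10 ± 0.57, adjusted p = 0.999 in edgeR).

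Most other microglial genes were also higher in the striatum. Of 36 tested, 33 were higher and 1 lower in the striatum, with a median of 1.60 log2 units. Selplg, a ligand of selectins, stood at 2.15 ± 0.12, the transcription factor Irf8 at 2.25 ± 0.13, the orphan receptor Gpr34 at 2.11 ± 0.13 and the ADP receptor P2ry13 at 2.09 ± 0.13. The 1 lower gene, named after its value was seen, was Olfml3 at -0.65 ± 0.22. Partners and regulators of complement were divided, with 9 of 15 higher and 4 lower and a median of 0.86. The subunits of complement receptor 3, Itgam (2.07 ± 0.19) and Itgb2 (1.95 ± 0.17), were higher, while C1r, the protease that joins C1q in the C1 complex, was lower (-1.66 ± 0.11). The other 3 lower genes, named after their values were seen, were the C1 inhibitor Serping1 (-1.32 ± 0.17), the C1 protease C1s (-0.51 ± 0.13) and the regulator Cd46 (-0.75 ± 0.21). Lysosomal partners of Ctss showed small differences, 5 of 16 higher and 2 lower with a median of 0.11, among them Ctsb at -0.70 ± 0.07 and Lamp2 at 0.63 ± 0.07. Of 14 genes of activated microglia 6 were higher and 6 lower (median 0.03), with the lipid receptor gene Trem2 at 1.37 ± 0.23 and the growth factor gene Igf1 at -1.28 ± 0.18. The summed level of this list had medians of 6618 CPM in the striatum and 3438 CPM in the cerebellum over all libraries. In libraries not standing apart these were 6618 and 3081 CPM. Of 15 inflammatory mediators 9 were higher and 3 lower (median 0.68), with the inflammasome gene Nlrp3 at 1.70 ± 0.13 and the lipopolysaccharide co-receptor gene Cd14 at -1.61 ± 0.25.

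Lists of other cells moved between the regions too. Endothelial genes were higher in the striatum for 12 of 13 (median 0.94) and oligodendrocyte genes for 12 of 12 (median 1.35), while of 15 astrocyte genes 7 were higher and 4 lower (median 0.21). Of 12 genes of border macrophages, which line the vessels and meninges, 3 were higher and 7 lower (median -1.02). Among them were Lyve1 at 1.40 ± 0.17 and the antigen-presenting genes RT1-Da at -2.04 ± 0.34 and Cd74 at -1.41 ± 0.27. The summed level of border macrophage genes ran from 23.6 to 66.3 CPM with a median of 36.7 in the striatum. In the cerebellum it ran from 20.0 to 579 CPM with a median of 48.4. Of 62 ribosomal protein genes, 0 were higher and 29 lower in the striatum (median -0.47). The part of these lists in the member differences was not tested.

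The 9 genes varied together within the striatum. Over the 22 striatal libraries not standing apart, the 3 chains of C1q had pairwise Pearson r from 0.95 to 0.97 (Spearman rho from 0.92 to 0.94). All 36 pairs of the 9 genes had a positive r, from 0.38 to 0.97, and 33 passed an adjusted p of 0.05 (permutation test with 100000 resamples, Benjamini-Hochberg over 72 pairs in both regions). Csf1r had r = 0.82 with Cx3cr1 and 0.78 with P2ry12 there, and 0.57 with C1qa. Without the 2 farthest libraries these were 0.76, 0.75 and 0.77, and rho over the 22 was 0.73 for each of the 3 pairs. Over all 30 striatal libraries Csf1r and C1qa had r = 0.09, and Csf1r and Aif1 had r = -0.12, whereas C1qa and C1qb had r = 0.98. Leaving out the 2 libraries farthest from the median of the first gene gave 0.22, -0.01 and 0.97 for these 3 pairs.

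In the cerebellum r is given within the 21 libraries not standing apart and within the 10 standing apart, a division that the rule above drew between ribosomal means of 8.33 and 8.46. In the 21, the 3 chains of C1q had r from 0.63 to 0.76, but without the 2 farthest libraries C1qa and C1qb had r = -0.36 and C1qb and C1qc had r = -0.03, so these relations rest on those libraries. There Csf1r had r = 0.51 with C1qb (rho = 0.55, and 0.66 without the 2 farthest), and Cx3cr1 had r = 0.57 with C1qb (rho = 0.63, and 0.53 without the 2 farthest). Csf1r and Cx3cr1 had r = 0.73 in the 21, and 0.76 without the 2 farthest. P2ry12 had r = 0.07 with Ctss and 0.03 with C1qc in the 21 libraries, where its counts were lowest. In the 10 libraries standing apart, the 6 pairs among Csf1r, Cx3cr1, P2ry12 and Tmem119 had r from 0.70 to 0.90, and those among the C1q chains and Aif1 had r from 0.67 to 0.99. All 16 pairs that cross these sets were negative there, from -0.52 to -0.24, but 0 of the 16 passed an adjusted p of 0.05 in the permutation test.

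**Figure D4:**
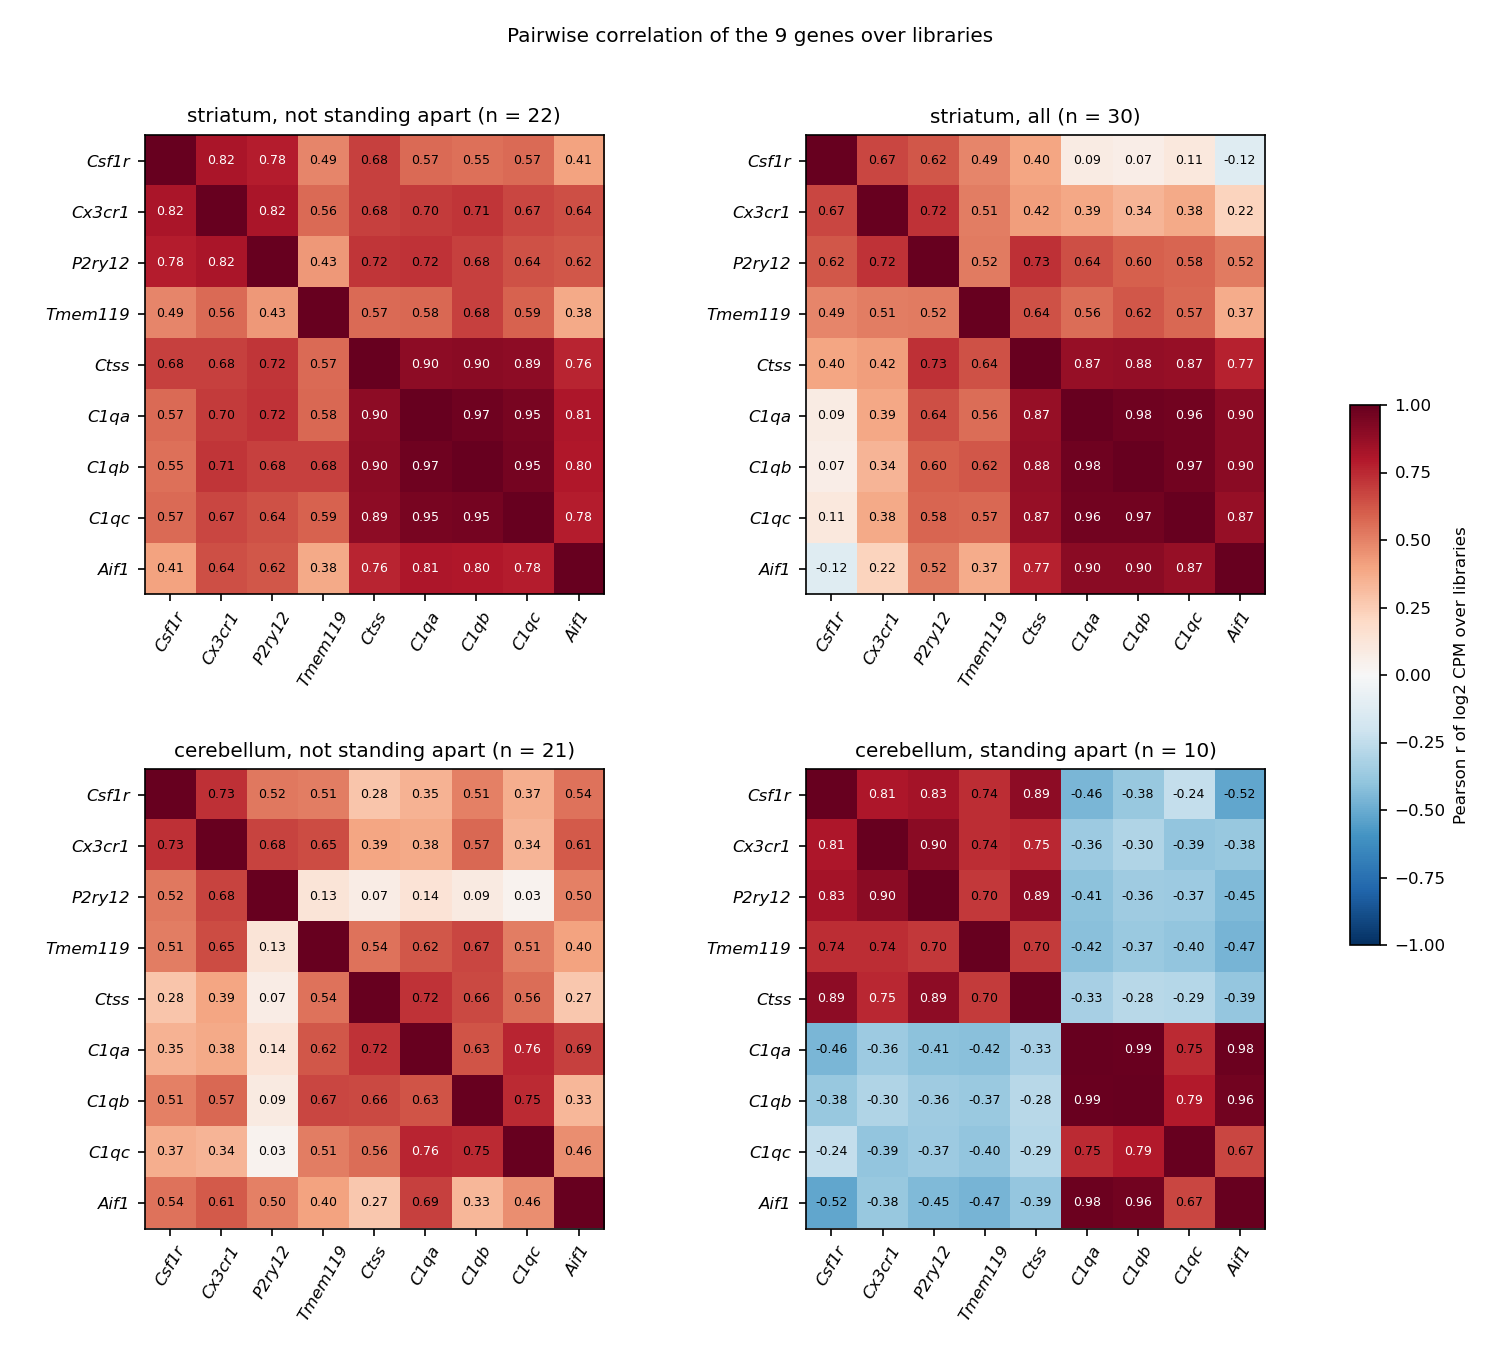
Pearson r of log2 CPM between each pair of the 9 genes over libraries, for striatal libraries not standing apart and all striatal libraries (upper row) and for cerebellar libraries not standing apart and standing apart (lower row); red is positive, blue negative. Among the striatal libraries not standing apart all pairs are positive, and C1qa, C1qb and C1qc form the tightest block at 0.95 to 0.97.

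The 9 genes were also set against ribosomal protein transcripts across libraries. Over the 22 striatal libraries not standing apart, the mean of the ribosomal list had r = 0.90 with C1qa (rho = 0.89), 0.90 with C1qb, 0.87 with C1qc, 0.79 with Aif1 and 0.78 with Ctss, against 0.22 with Csf1r (rho = 0.62). Without the 2 farthest libraries these were 0.88, 0.88, 0.89, 0.63, 0.87 and 0.59. C1qa had an adjusted p of 0.0001 and Csf1r of 0.347 (permutation test, Benjamini-Hochberg over 90 relations). In the 10 cerebellar libraries standing apart, the same list had r = 0.81 with C1qa (rho = 0.83), 0.77 with C1qb and 0.85 with Aif1, but -0.85 with Csf1r (rho = -0.81), -0.81 with P2ry12 and -0.80 with Ctss. These 6 passed an adjusted p of 0.05 in the same permutation test, and without the 2 farthest libraries they were 0.76, 0.70, 0.76, -0.66, -0.66 and -0.58. Values for C1qc, Cx3cr1 and Tmem119 in these libraries are not listed here, so no division of all 9 genes is drawn from them. In the 21 other cerebellar libraries C1qa had r = 0.81 and Csf1r 0.12, which became 0.37 and -0.45 without the 2 farthest. These relations were chosen after seeing the data.

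**Figure D5:**
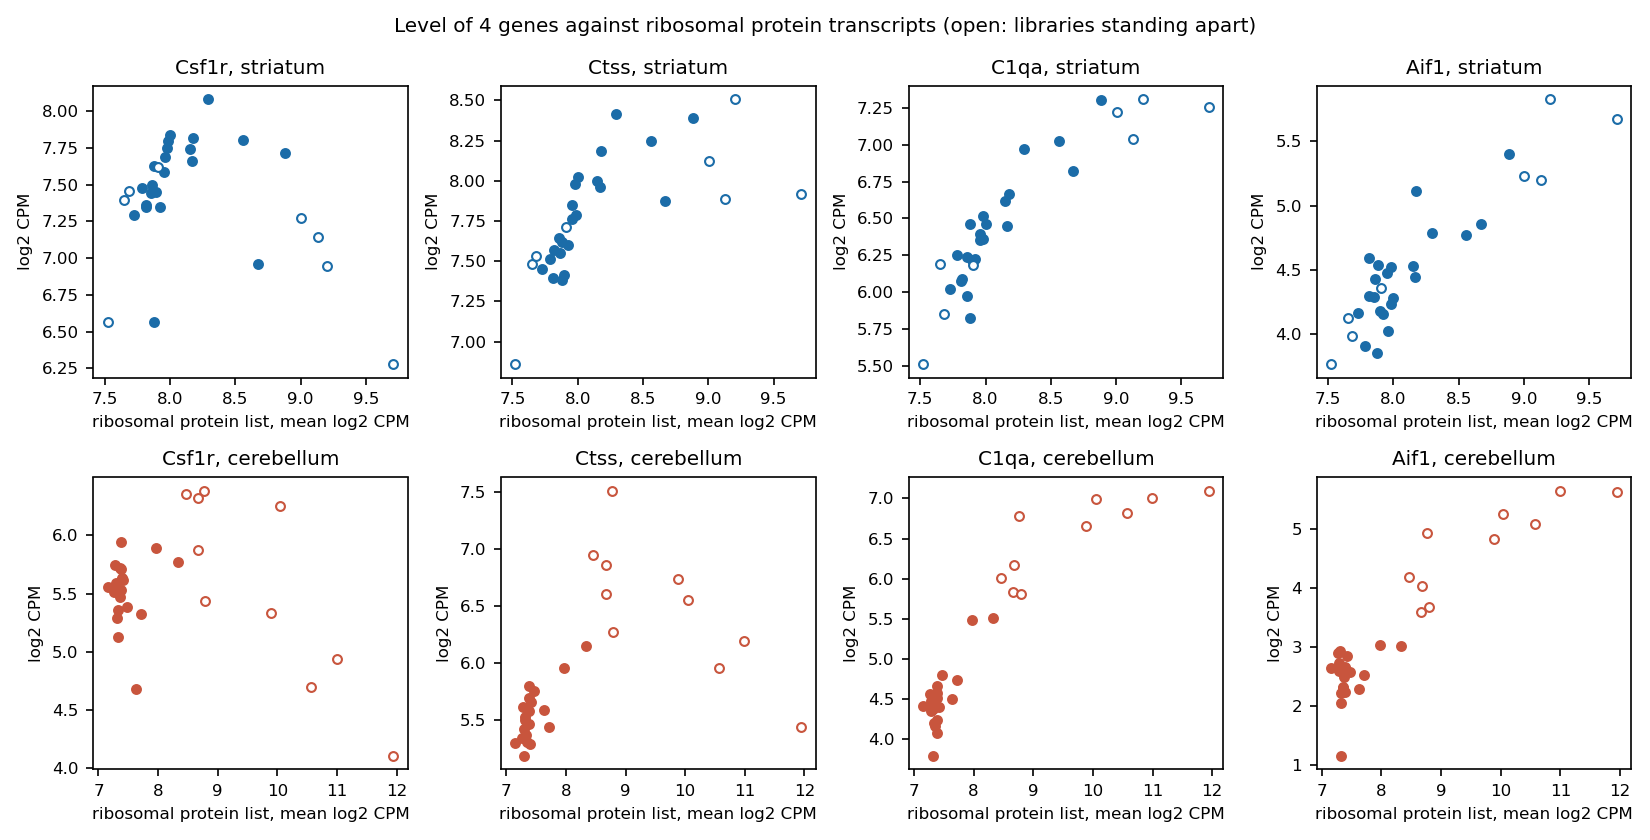
Log2 CPM of Csf1r, Ctss, C1qa and Aif1 (vertical axes) against the mean log2 CPM of 62 ribosomal protein genes (horizontal axes) in each striatal (upper row) and cerebellar (lower row) library, with open points for libraries standing apart. C1qa and Aif1 are high where the ribosomal mean is high in both regions, and in each region Csf1r is lowest in the library with the highest ribosomal mean.

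Csf1r varied with the endothelial list. Their r was 0.93 in the 22 striatal libraries not standing apart and 0.94 without the 2 farthest (rho = 0.94, adjusted p = 0.0001 in the permutation test). In the 10 cerebellar libraries standing apart it was 0.96 (0.94 without the 2 farthest, adjusted p = 0.0045 in the permutation test), and in the other 21 it was 0.41 (adjusted p = 0.0847 in the permutation test). C1qa had r = 0.57 with the endothelial list in the 22 striatal libraries and -0.50 in the 10 cerebellar libraries standing apart. With the other microglial genes, Csf1r had r = 0.94 and C1qa r = 0.76 in the 22 striatal libraries (adjusted p = 0.0001 and 0.00035 in the permutation test).

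Reads of Csf1r per read of C1qa had a median of 2.34 over the 22 striatal libraries not standing apart (1.10 to 2.78) and 2.21 over the 21 such cerebellar libraries (1.13 to 2.97). In the 10 cerebellar libraries standing apart the median was 0.679, from 0.124 in high 43 to 1.28 in medium 8. Reads of C1qc per read of C1qa had medians of 0.487 and 0.479 in the striatal and cerebellar libraries not standing apart, and 0.486 in the cerebellar libraries standing apart, where sham 48 was highest at 0.941 (982 and 1044 reads) and the next library had 0.751. These ratios are of reads, not of molecules, since the transcripts differ in length.

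An animal high in one region was tested for being high in the other. Over the 29 animals with both libraries, striatal and cerebellar log2 CPM had r = 0.56 for C1qa, 0.65 for C1qb, 0.60 for C1qc and 0.51 for Aif1, and these 4 of 9 passed (permutation test, adjusted p from 0.00198 to 0.0118 over 9 relations). Their rho values were 0.33, 0.58, 0.46 and 0.38, of which C1qb and C1qc passed (adjusted p = 0.0127 and 0.0414 in the permutation test), and without the 2 farthest animals r was 0.49, 0.62, 0.57 and 0.43. Csf1r had r = 0.09 (adjusted p = 0.653 in the permutation test). The mean of the ribosomal list itself had r = 0.68 between the regions of an animal (rho = 0.66). In the 16 animals with neither library standing apart, none of the 9 passed, and C1qa had r = -0.40 and C1qb 0.07.

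The genes outside the list whose levels, centred on the group mean, were most like the mean of the 9 are given as a description. Over the 30 striatal libraries they were Laptm5, a lysosomal membrane protein on the list of other microglial genes (r = 0.96), Anxa3 (0.95), Pld4 (0.93), Ilrun, Vsir, Mmd2, Tmem176a and Tmem176b (0.90 each). Over the 31 cerebellar libraries they were Tmem176b (0.97), Tmem176a, Pnp, Laptm5, Hsd17b11, Anxa3, Gnai2 and Cd81 (0.96 each). Taken singly over the 30 striatal libraries, Csf1r was most like Mpeg1, a pore-forming protein of macrophages (0.96), and Slco2b1 (0.94). C1qa was most like the astrocyte marker S100b and Tmem176a (0.96 each). Among the 22 striatal libraries not standing apart, C1qa was most like Apoe, Ndrg2 and Aldoc (0.96 each). The values over all 30 striatal and all 31 cerebellar libraries pool libraries standing apart with the others. Over the 22 striatal libraries not standing apart, the genes most like the mean of the 9 were Ndrg2 and Laptm5 (0.95 each). Vsir, Acsbg1, Anxa3, Pygm, the astrocyte marker Aldoc and B2m followed (0.94 to 0.93). Over the 21 such cerebellar libraries they were Mfsd5 (0.86), Npc2, Gnai2, Actb, Acot9, Psmb9 and Fam174a (0.85 each) and Vamp8 (0.84).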

How the data were processed

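The authors deposited a table of raw read counts per gene for each region; the counts were not normalized. HISAT2, FastQC and the rn6 build are named in the submitters' processing notes, with versions not given in the sources used here. The labels' protocols give poly(A) capture or ribosomal RNA removal for mRNA enrichment without saying which library had which. Gene IDs were matched to symbols through a RefSeq gene table. Counts were tested with edgeR 4.0.16 (limma 3.58.1, R 4.3.3): TMM factors, filterByExpr, quasi-likelihood tests and Benjamini-Hochberg adjustment at 0.05 over all genes tested. Each region was fitted alone for loadings, and both together on the 13889 shared genes for the region comparisons. DESeq2 1.42.0 and limma-voom were alternatives. Correlations used log2 CPM with a prior count of 2 and 100000 permutations. Libraries of one animal tended to deviate together between regions: the median r was 0.345 over 29 animals (-0.24 to 0.82), with 21 above 0.1. Over 203 pairs of different animals of the same exposure the median was 0.002 (-0.81 to 0.81), with 84 above 0.1. The 9 genes are always named. Of each other list, up to 4 called genes with the smallest p are named, with all 4 ligands and the 8 most alike genes per region. The members and lists were chosen with earlier results of these data known. No other columns of sample values were used. The fits were tested on simulated data.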

Additional observations from a re-analysis of the deposited data

Results flagged for a closer look

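Of 72 groups of libraries examined (9 genes, 2 regions, 4 exposures), 7 held 1 library far from the rest of its group. Chance gives about 1 in 20 groups if groups are independent. The 9 genes were read in the same libraries and varied together, so the 7 are not separate observations and cannot be set against that share. In the striatum, Cx3cr1 was low in medium 41 at 12.97 CPM, with the next library at 29.24 CPM, and Csf1r was low in high 28 at 75.47 CPM, with the next at 161.1 CPM. In cerebellar sham 48, C1qb was high at 80.98 CPM (next 24.27 CPM), C1qc at 121.0 CPM (next 19.66 CPM) and Aif1 at 38.33 CPM (next 7.884 CPM). In cerebellar low 22, Cx3cr1 was high at 25.02 CPM (next 9.885 CPM) and P2ry12 at 13.02 CPM (next 4.806 CPM). All 7 values came from libraries standing apart.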

How the results depend on the processing

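Over the 9 genes and 6 loading comparisons, 36 of 540 alternative fits and 50 of 1647 fits without 1 library changed sign, and 0 were called. With limma-voom, Aif1 at low in the striatum was 0.14, C1qc at low and medium in the cerebellum 0.076 and 0.17, and Csf1r at high in the cerebellum 0.20. Without libraries standing apart, the values were 0.078 for Aif1 and 0.056 for Tmem119 (high) in the striatum, and 0.14 for C1qc at low and 0.18 for Csf1r in the cerebellum. With list means as covariates, Aif1 was 0.11 and C1qc at medium 0.057; with a block for runs of 15 animal numbers, C1qc at medium was 0.095. The labels say that rats came in 4 cohorts without giving the cohort of each rat, so these runs are a stand-in and the cohort itself was not tested. The causes were not tested. Leaving out each library gave -0.15 to 0.10 for Aif1 at low and -0.21 to 0.032 for Tmem119 at high in the striatum, and -0.89 to 0.64 and -0.37 to 1.14 for C1qc at low and medium in the cerebellum. The count for the cerebellar trend was 0 to 1. Between the regions of one animal, 0 of 9 correlations passed without libraries standing apart. DESeq2 gave no adjusted p for the 9 genes for any exposure in the cerebellum.

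With the animal as a replicate block, 9 of 9 genes were called between regions over the mean of exposures (1.27 to 2.06 log2 units), where 70.7% of all genes were, and 9 of 9 in sham, where 43.9% were; the interaction stayed at 0 of 9. In sham, leaving out each library gave 5 to 9 of 9 (40.1% to 45.3% of all genes), limma-voom 9 (72%) and DESeq2 7 (41.3%). None of 171 alternative or 1098 left-out-library region fits changed sign.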
